A study of Mus musculus with 8 samples.

Results

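Transcripts of 9 pancreatic genes were followed through 8 bulk RNA-seq libraries of mouse kidney, lung, liver and small intestine. The genes are 8 products of the acinar cell (Prss2, Ctrl, Cela1, Cpb1, Clps, Pnliprp1, Pnliprp2 and Sycn) and 1 product of the beta cell (Ins2), out of 52195 genes measured. They were chosen by name on measured values, namely their FPKM in small intestine and the ratio between its 2 libraries, after other acinar transcripts had been seen there. The contrast of small intestine with the other tissues and that ratio are therefore given for these genes as a description, with no test. The question behind the choice is whether pancreas that came away with the excised gut accounts for these transcripts. No pancreas library was used here, so the question is approached only through the values themselves.

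The mice were untreated males of the inbred strain C57BL/6J, which the labels give as C57BL/6, and were between 6 and 10 weeks old. Each tissue has 2 libraries. The study took the libraries of a tissue from separate mice, and several tissues from each mouse. From which stretch of the small intestine the tissue was cut is not given in the sources used here. Tissues were washed in PBS, ground whole in liquid nitrogen and extracted with Trizol, and polyadenylated RNA was sequenced. Values are FPKM, fragments scaled to the length of the transcript and to the size of the library, so they can be compared between genes and between libraries. A few very abundant transcripts of a library lower all its other values. Low values come in steps of 1 read, and these steps put the reads counted on genes between 9164141 in liver replicate 1 and 21444609 in kidney replicate 1. In bulk tissue, fewer cells of a type and less RNA per cell cannot be told apart.

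The acinar cell of the pancreas makes digestive enzymes, stores most of them as inactive zymogens in secretory granules and releases them through the pancreatic duct into the duodenum. In the mouse the pancreas is a soft, spread-out organ held in the mesentery along the duodenum. Proteases, lipases and amylase are made in bulk by the same cells, under the transcription factors Ptf1a and Rbpjl, which bind as a complex to a paired E-box and TC-box upstream of many acinar genes. Islets, which make insulin and other hormones, are scattered among the acini and are a small part of the organ.

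Both small intestine libraries held 8 of the 9 transcripts at levels well above those of the other 6 libraries, and Ins2 was near the limit of detection. The 8 acinar genes together took 0.250% of the summed FPKM in replicate 1 and 0.127% in replicate 2. Their sum was 1717 in replicate 1 and 843 in replicate 2. In every one of the 8 genes both small intestine libraries were above every other library. The fold between the lower small intestine library and the highest other library had a median of 76.9 over the 8 genes. It was lowest for Cela1, at 3.08. For Pnliprp2 it is only a lower bound, because the other libraries held at most 1 read. The level in replicate 1 was higher in 7 of the 8 genes, by a similar factor, and lower for Pnliprp2.

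**Figure D1:**
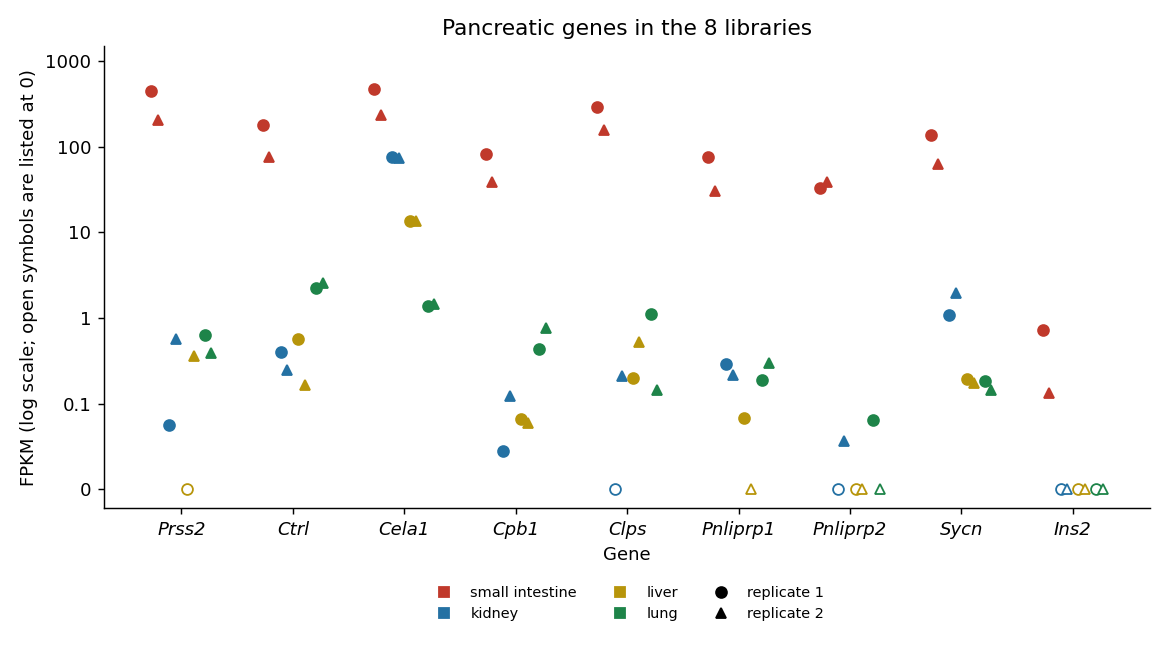
FPKM of the 9 genes (vertical axis, log scale) in each of the 8 libraries, with colours for tissues and circles and triangles for replicates 1 and 2; open symbols at the bottom are libraries in which the gene is listed at 0. The small intestine symbols lie above all others for every gene, with Cela1 closest to another tissue, at 236 in small intestine replicate 2 against 76.5 in kidney replicate 1.

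The proteases are described first. Prss2, an anionic trypsinogen encoded in GRCm38 on chromosome 6, positions 41521787 to 41525079, had an FPKM of 450 in small intestine replicate 1 and 204 in replicate 2, a mean of 327 ± 174 (SD, n = 2). In kidney it was at 0.0572 and 0.567, in liver at 0 and 0.357, and in lung at 0.628 and 0.395. These values outside the intestine amount to between 0 and 8 reads, against 3433 and 1882 reads in the small intestine libraries. For Prss2 the lower small intestine library was 325-fold above the highest other library. Of the 31-base words in its annotated transcripts, 22.5% also occur in another gene, mostly the trypsinogen Try4, so part of its level cannot be assigned to it alone.

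Ctrl, a chymotrypsin-like protease on chromosome 8 from 105932003 to 105933862, was at 177 and 75.9 in small intestine replicates 1 and 2. It was at 0.403 and 0.250 in kidney, 0.566 and 0.168 in liver, and 2.21 and 2.58 in lung. The 25 and 37 reads in the lung libraries make lung the highest of the other tissues, and the separation from small intestine was 29.5-fold. The lung libraries did not overlap with those of kidney or liver, while kidney and liver overlapped.

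Cela1, an elastase on chromosome 15 from 100674421 to 100687921, had the highest level of the 9 genes, at 470 and 236 in small intestine. It was the only one of the 9 genes with a level over 3 in another tissue. In kidney it was at 76.5 and 74.2, in liver at 13.5 and 13.4, and in lung at 1.39 and 1.46. The libraries of each of these 3 tissues lay within 5% of each other, and the fold between the lower small intestine library and the higher kidney library was 3.08.

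Cpb1, a carboxypeptidase that removes basic residues from the end of peptides, lies on chromosome 3 from 20248264 to 20275733. It was at 81.7 and 38.4 in small intestine, at 0.0284 and 0.123 in kidney, at 0.0665 and 0.0590 in liver, and at 0.437 and 0.760 in lung. The highest of these other values rests on 31 reads, in lung replicate 2, and lies 50.6-fold below small intestine replicate 2.

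The lipid-digesting members comprise a cofactor and a pair of lipase-related enzymes. Clps, the colipase that anchors pancreatic lipase to fat droplets in the presence of bile salts, lies on chromosome 17 from 28558149 to 28560766. It was at 293 and 156 in small intestine, 0 and 0.210 in kidney, 0.198 and 0.528 in liver, and 1.12 and 0.146 in lung. Only 1 of the other 6 libraries, lung replicate 1, exceeded 3 reads of Clps, with 6, and it lay 140.0-fold below small intestine replicate 2. The microRNA gene Mir6969 lies within Clps on the same strand.

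Pnliprp1 and Pnliprp2 are neighbours on the plus strand of chromosome 19, from 58728887 to 58744169 and from 58759719 to 58777534, with 15549 bases and 0 annotated genes between them. Pnliprp1 resembles pancreatic lipase but has little known lipase activity, while Pnliprp2 splits galactolipids and other fats and has also been found in cytotoxic T cells. Pnliprp1 was at 76.4 and 30.8 in small intestine replicates 1 and 2, and between 0 and 0.298 in the other 6 libraries. Pnliprp2 was at 32.9 and 38.9 in small intestine, a mean of 35.9 ± 4.25 (SD, n = 2), and was listed at 0 in 4 of the other 6 libraries, with 1 read in each of the remaining 2. Against the highest floor of 3 reads among the other 6 libraries, the lower small intestine library was at least 158-fold higher for Pnliprp2.

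Sycn, which encodes syncollin, a protein of the inner face of the zymogen granule membrane, lies on chromosome 7 from 28540885 to 28542209. It was at 136 and 62.4 in small intestine and at 1.09 and 1.97 in kidney, and between 0.145 and 0.196, or 1 read each, in the 4 libraries of liver and lung. Sycn overlaps Samd4b on the opposite strand, and whether the counting used strand is not stated in the sources used here.

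Ins2, one of the mouse insulin genes, is annotated on chromosome 7 from 142678656 to 142743381, a span that includes a long alternative transcript. It was at 0.733 in small intestine replicate 1 and 0.135 in replicate 2, which are 9 and 2 reads, and was listed at 0 in each of the other 6 libraries. A count of 3 reads would give an FPKM between 0.107 and 0.249 in those 6 libraries. The 2 reads of replicate 2 are under the floor of 3 and were not told from 0, and replicate 1 was at least 2.94-fold above the highest of the floors. These floors and all intervals given here cover counting error only, since reads without molecular identifiers are not independent molecules.

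Among the 9 genes the order of levels in replicate 1 was Cela1, Prss2, Clps, Ctrl, Sycn, Cpb1, Pnliprp1, Pnliprp2 and Ins2. In replicate 2 Pnliprp2 stood above Cpb1 and Pnliprp1. Across the libraries the ranges of neighbouring acinar genes overlapped, since most levels differ about 2-fold between the libraries together, while within each library the order of the first 5 was the same. The composition of the acinar set was much alike in the 2 libraries. Cela1 made up 27.4% of the summed FPKM of the 8 genes in replicate 1 and 28.0% in replicate 2, Prss2 26.2% and 24.2%, and Clps 17.0% and 18.6%. The share that changed most was that of Pnliprp2, at 1.92% in replicate 1 and 4.62% in replicate 2.

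The stretches of 250 bases before the start sites of 4 members are shown because these genes carry the contrasts of the data. Prss2 and Ctrl were far higher in small intestine than elsewhere and had like ratios between its libraries, Cela1 is also present in kidney and liver, and Pnliprp2 did not follow the others between the libraries. The sequences are RefSeq's for build GRCm38.p6, in which 7 of the 9 members were matched, all but Clps and Ins2, and whose start sites can differ by some bases from the gene bounds given above. Each is printed 5′ to 3′ on the strand of the gene, with capitals for the E-box CACCTG and the TC-box TTTCCC, both read on either strand, so that CAGGTG and GGGAAA are marked as well. Prss2 lies at chr6:41521526-41521775 on the plus strand, Ctrl at chr8:105933863-105934112 on the minus strand, Cela1 at chr15:100687921-100688170 on the minus strand, and Pnliprp2 at chr19:58759473-58759722 on the plus strand.
Prss2: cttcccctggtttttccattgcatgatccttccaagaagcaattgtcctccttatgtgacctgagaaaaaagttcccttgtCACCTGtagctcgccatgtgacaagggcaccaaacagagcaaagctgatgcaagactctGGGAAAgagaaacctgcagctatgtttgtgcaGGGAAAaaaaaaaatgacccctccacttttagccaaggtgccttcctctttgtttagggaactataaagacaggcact
Ctrl: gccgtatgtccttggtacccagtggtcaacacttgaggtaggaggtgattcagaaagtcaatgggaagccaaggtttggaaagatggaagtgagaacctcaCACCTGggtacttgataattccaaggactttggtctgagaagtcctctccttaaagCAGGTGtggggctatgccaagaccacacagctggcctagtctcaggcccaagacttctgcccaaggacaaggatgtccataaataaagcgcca
Cela1: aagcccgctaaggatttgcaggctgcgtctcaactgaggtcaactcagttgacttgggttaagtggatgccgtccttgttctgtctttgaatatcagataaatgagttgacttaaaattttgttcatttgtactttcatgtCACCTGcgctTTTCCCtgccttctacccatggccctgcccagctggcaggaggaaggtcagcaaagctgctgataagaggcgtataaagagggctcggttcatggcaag
Pnliprp2: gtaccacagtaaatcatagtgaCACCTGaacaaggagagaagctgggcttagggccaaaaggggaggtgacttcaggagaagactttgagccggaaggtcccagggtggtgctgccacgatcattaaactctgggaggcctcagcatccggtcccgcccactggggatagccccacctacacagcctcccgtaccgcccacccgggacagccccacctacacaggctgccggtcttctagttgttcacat

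The E-box CACCTG was found in 5 of the 7 stretches, which are those of Prss2, Ctrl, Cela1, Cpb1 and Pnliprp2, and in 17.2% of 32851 promoters of the same length. The TC-box TTTCCC was found in 2 of the 7, Prss2 and Cela1, and in 21.9% of all promoters. Both motifs together were found in the same 2 of the 7 and in 3.61% of all promoters. In Cela1 the motifs stand close together, beginning 109 and 99 bases before the start. In Prss2 the E-box begins 169 bases and the TC-box 110 and 78 bases before the start. The E-box of Pnliprp2 is the farthest from the start, at 228 bases. Another motif, CAAGGTCA, a site of the acinar factor Nr5a2, was found in 0 of the 7 stretches and in 1.33% of all promoters. The motifs do not overlap each other, and a match is a description of letters, not a site.

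The ratio of small intestine replicate 1 to replicate 2 was next compared between the members and with all other genes. For 7 acinar genes it lay between 1.87 and 2.48 with a median of 2.18. Prss2 was at 2.21, with an exact binomial interval at 95% confidence from 2.09 to 2.34. Ctrl was at 2.34, from 2.16 to 2.53. Cela1 was at 1.99, from 1.90 to 2.09. These ratios are all near 2. The lowest of the 7 was that of Clps, at 1.87 with an interval from 1.72 to 2.03, and the highest that of Pnliprp1, at 2.48 with an interval from 2.24 to 2.75. Cpb1 and Sycn were between them, at 2.13 and 2.18.

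Pnliprp2 went the other way, at 0.846, with an interval from 0.751 to 0.951 from 483 and 691 reads. Its neighbour Pnliprp1 is thus at the other end of the range. The ratio helped to choose the genes, so its intervals show the counting error of each and test no difference between them. Ins2 was at 5.44, and its 11 reads allow anything from 1.13 to 51.8, so its ratio was not told from those of the 7 acinar genes other than Pnliprp2 at this depth.

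**Figure D2:**
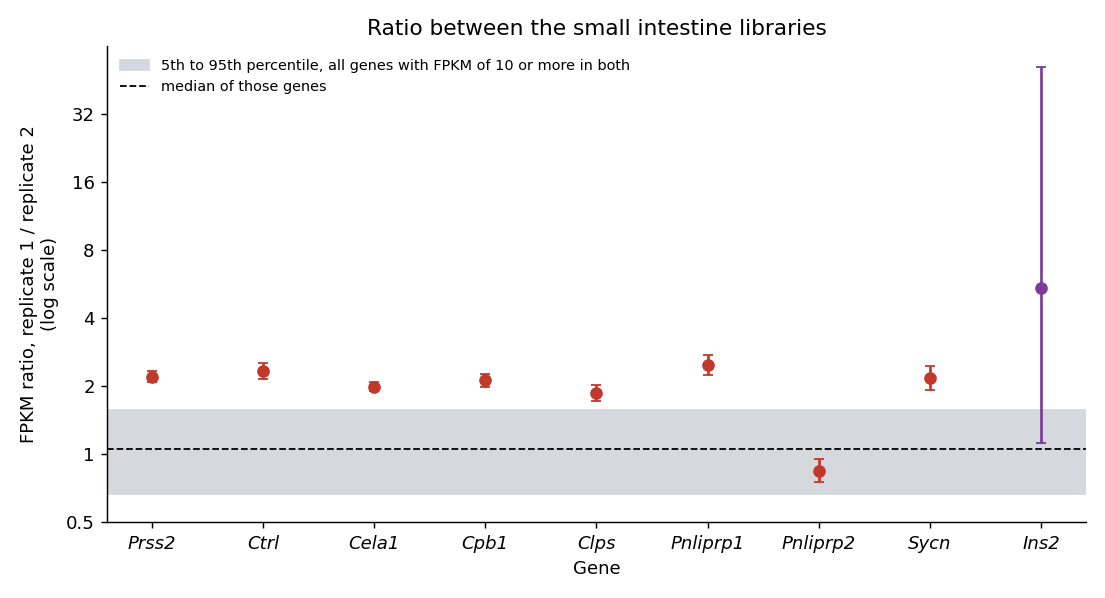
Ratio of FPKM in small intestine replicate 1 to replicate 2 (vertical axis, log scale) for the 9 genes, with exact binomial intervals at 95% confidence from the reads; the dashed line and the grey band are the median and the range from the 5th to the 95th percentile of 3542 genes. Above the band lie 7 acinar genes, near 2, while Pnliprp2 lies inside it at 0.846, and the interval of Ins2 spans most of the axis.

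Over the 3542 genes whose FPKM reached 10 in both small intestine libraries, the median ratio was 1.05, and the 5th and 95th percentiles were 0.664 and 1.57. A ratio of 1.5 or more was reached by 7 of the 8 acinar members, where 6.69% of these 3542 genes reached it. The ratio is part of the rule that chose the members, so nothing is read from that difference. The median of the 8 members was 2.15, and 46 of the 3542 genes, or 1.30%, were at or above it. Pnliprp2 was higher than 18.5% of the genes.

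The other acinar enzymes of a list had ratios like those of the members. The list was drawn up with results of these data known. Of 22 listed symbols 20 had a row, and 17 of these reached an FPKM of 1 or more in both small intestine libraries, with a median ratio of 2.06 and with 16 of 17 at 1.5 or more. The share of all genes at 1.5 or more, 6.69%, is for an FPKM of 10 or more in both. It is not a like measure, and nothing is read from the count. Ctrb1, the major chymotrypsinogen, was at 1009 and 446, a ratio of 2.26. Pnlip, the pancreatic lipase for which Clps is the cofactor, was at 333 and 169, a ratio of 1.97. Cel, the bile salt-stimulated lipase, was at 99.8 and 51.4, a ratio of 1.94. Cpa1, a carboxypeptidase for other peptide ends than those of Cpb1, was at 188 and 75.5, a ratio of 2.48.

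Paralogs of the members show which genes of a family carried the signal. Of the elastases beside Cela1, Cela2a was at 168 and 68.6 and Cela3b at 193 and 87.4, while Cela3a was at 1.67 and 0.461. Of the trypsinogens beside Prss2, Try4 was at 361 and 180 and Try5 at 221 and 98.8. Try10, at 3.85 and 1.75, and Prss3, at 2.34 and 1.40, were far lower, and Prss1 had 2 reads in replicate 1 and 0 in replicate 2. Of the 31-base words of Try4, 82.7% occur in another gene, mainly Try5, so these trypsinogens are not separated well. The gene of the list with the lowest ratio was Spink1, a trypsin inhibitor, at 942 and 857, a ratio of 1.10. It was also at 593 and 824 in kidney. Gp2, a granule membrane protein, was at 17.9 and 11.0 in small intestine and 21.8 and 7.09 in lung.

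On the log2(FPKM + 1) scale, the median difference between small intestine and the mean of the other 3 tissues was 6.04 over the 17 other acinar enzymes with values high enough to be fitted, and -0.01 over all 16328 genes. Limma called 17 of 17 higher at an adjusted p (Benjamini-Hochberg) under 0.05 and a log2 difference over 1, where the share of all genes was 13.7%. Nothing is read from that count or that median. Only 3 of the 17 still pass the filter when either small intestine library is left out, so most of them entered through the tissue in which they are high and had to differ.

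The genes most like the members were sought over the whole table. The search took those that reached an FPKM of 1 in both small intestine libraries and at least 10 times the highest other library in both, of which there were 339 outside the members, with a median ratio of 0.923. The 10 genes nearest to the median log2 ratio of the acinar members, over these 2 libraries, included Amy2, Amy2a4, Amy2a3, Amy2a2, Try10, Cela3b, 2010001M07Rik, Try5 and Sst. Of those named, Try10, Cela3b and Try5 are on the acinar list and 4 are amylase genes. The distance from the members' median was 0.03 for Amy2 and 0.06 for Sst on the log2 scale. The amylase genes, at 767 to 820 in replicate 1 and 349 to 374 in replicate 2, are near-identical copies whose single values are uncertain. Sst, the hormone somatostatin, is made by islets and by endocrine cells of the stomach and gut, and was at 54.8 and 26.5. Of the 232 such genes that reached an FPKM of 10 in both libraries, 15 had a ratio between those of Clps and Pnliprp1, and 7 of the 15 are on the acinar list. With no minimum of 10, the list held 14 of the 339 genes, and 10 of the 22 in that range. The range is set by the members' own ratios, so these counts are a description. Outside that list, and named after their values were seen, were the amylase genes, 2210407C18Rik, 2210010C04Rik, Sst and Gip, a hormone of the proximal small intestine, at a ratio of 2.03.

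Most beta cell genes, and the acinar factor Ptf1a, had fewer than 10 reads in each small intestine library. Of 8 beta cell genes, 4 (Mafa, G6pc2, Slc30a8 and Nkx6-1) were listed at 0 in both small intestine libraries. Ins1, the other mouse insulin gene, was at 0.210 and 0, which is below the value of 3 reads. Iapp, the amyloid peptide released with insulin, had 9 and 8 reads, and Ucn3, a peptide of mature beta cells, had 9 and 7. Pdx1, a factor of beta cells that the duodenum and the distal stomach also express, was at 4.85 and 1.76, a ratio of 2.76. Of the other islet hormones, which gut endocrine cells share in part, Gcg was at 13.1 and 16.2, Chga at 28.0 and 20.6, Pyy at 0.508 and 2.94, and Ppy at 0 in both. Among the acinar factors, Ptf1a had 2 and 1 reads. Rbpjl was at 0.559 and 0.354 in small intestine, from 30 and 23 reads, and at 10.0 and 9.88 in lung. Bhlha15, which some other secreting cells use as well, was at 2.17 and 1.87, and Nr5a2, also a factor of gut crypts, at 2.61 and 3.34.

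The summed levels of the stomach, Brunner gland and ileum lists lay farther apart between the 2 libraries than that of the acinar members, though not every gene of these lists did. Of 9 stomach genes, summed to an FPKM of 541 in replicate 1, 4.71 in replicate 2 and between 0.331 and 7.99 in the other 6 libraries, Gkn3 was at 419 and 4.13, Gkn2 at 66.7 and 0, and Gkn1 at 30.6 and 0. The proton pump genes of parietal cells were near absent in small intestine, with Atp4b at 0 in all 8 libraries and Atp4a at 0.0852 and 0.141. In kidney Atp4a was at 7.07 and 3.64. The mucus genes Tff2 and Muc6, expressed in the stomach and in the Brunner glands of the first part of the duodenum, were at 935 and 7.56 and at 21.1 and 0.0660. Tff2 was also at 44.2 and 19.6 in lung, above its level in small intestine replicate 2. Between the small intestine libraries, genes of the ileum went the other way, with a sum of 2.98 in replicate 1 and 38.0 in replicate 2. Fabp6, the ileal bile acid binding protein, was at 0.223 and 25.4, and Osr2 at 2.45 and 10.4. The duodenal list summed to 165 in each library, most of it from the lactase gene Lct, at 127 and 131, a ratio of 0.968 with an interval from 0.940 to 0.998. The factor Gata4 was at 25.6 and 25.2, a ratio of 1.02 from 0.930 to 1.11. The equal sums follow Lct and do not show that the lower genes were equal. The list's median ratio was 1.16 over the 4 genes that reached an FPKM of 1 in both libraries. Cybrd1, which did not, was at 0.680 and 0.463, a ratio of 1.47 with an interval from 0.865 to 2.51. Slc40a1, the iron exporter, was at 7.54 and 4.75, a ratio of 1.59 with an interval from 1.41 to 1.79, and Onecut2 was at 5.07 and 3.87, a ratio of 1.31 from 1.17 to 1.47.

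The stomach and Brunner gland lists move with the pancreatic genes, with higher values in replicate 1, and the ileum list moves against them. Their part in the ratio of the members was not tested, and with 1 library on each side the mouse, the stretch of gut and the amount of pancreas cannot be told apart. The summed stomach and Brunner gland lists differed 115-fold and 125-fold between the libraries, against 1.76-fold for the other acinar enzymes, Spink1 included. Enterocyte genes were lower in replicate 1, with a median ratio of 0.729 over 7 genes of which Alpi, an alkaline phosphatase, was the exception at 1.35, and genes of the pancreatic duct, which gut epithelium shares, were at 0.946 over 6 genes. Fat and lymphoid genes, as other tissues of the mesentery, were at 0.993 and 1.04, over 3 genes each.

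**Figure D3:**
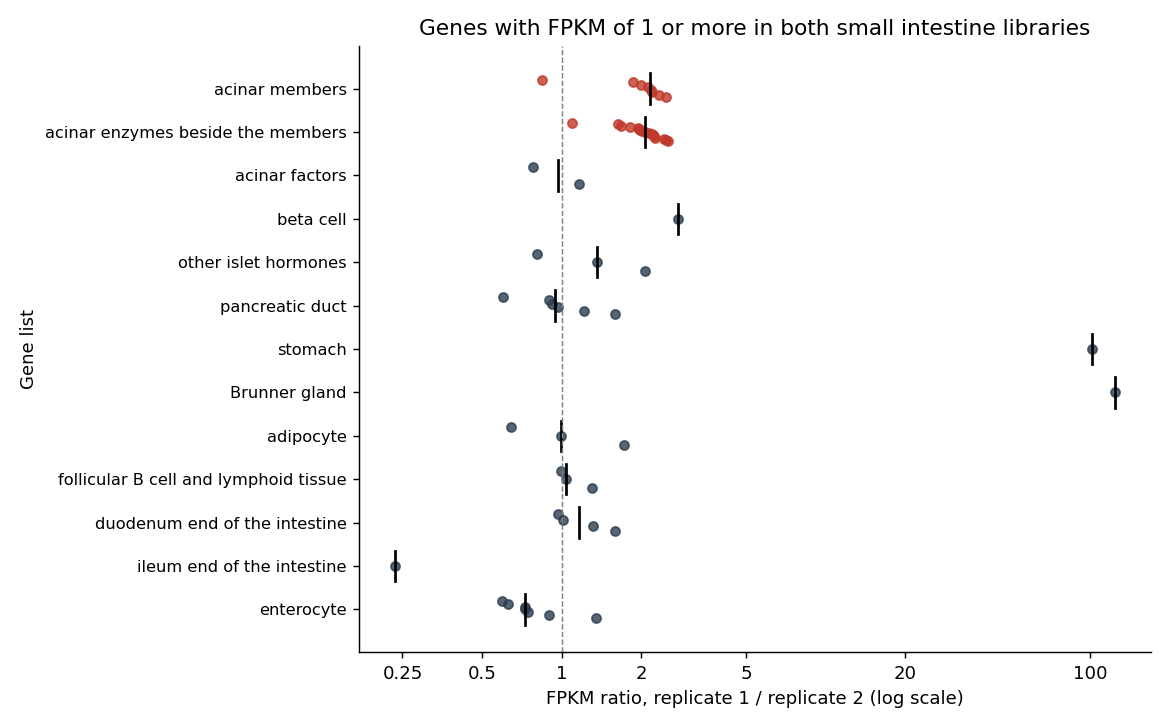
Ratio of FPKM in small intestine replicate 1 to replicate 2 (horizontal axis, log scale) for single genes of the acinar members and of each list, among genes that reach an FPKM of 1 in both libraries; each point is a gene and each vertical bar the median of a list. The 2 acinar lists gather near 2, at medians of 2.15 and 2.06, Gkn3 of the stomach list and Tff2 of the Brunner gland list stand at 102 and 124, and all enterocyte genes but Alpi lie below 1.

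Outside the small intestine the members could be compared by a test that did not use the rule. Kidney, lung and liver were compared with each other by limma on log2(FPKM + 1) in a fit of all 8 libraries. The members tested were 8, since Ins2 did not pass the filter, and 5 of the 8 (Prss2, Cpb1, Clps, Pnliprp1 and Pnliprp2) passed it only through small intestine. Called were 3 of the 8 members in lung against kidney, where 50.3% of all genes were called in either direction, 2 of 8 in lung against liver, where the share was 62.7%, and 2 of 8 in kidney against liver, where it was 23.1%. Nothing is read from these counts, since the 5 genes that passed only through small intestine were at an FPKM of 1.12 or less elsewhere and could hardly be called. The genes called were Cela1 in all 3 comparisons, Ctrl and Sycn.

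Cela1 was higher in kidney than in lung (log2 difference, lung minus kidney, -4.98, standard error 0.28, adjusted p = 4.4e-06, limma). It was higher in kidney than in liver by 2.40 (standard error 0.28, adjusted p = 0.00039, limma) and lower in lung than in liver (lung minus liver -2.57, standard error 0.28, adjusted p = 9.13e-05, limma). Both libraries of each tissue lay apart from those of the others, and the order kidney, liver, lung was the same in every alternative tried. The median log2 difference of all genes was 0.81 for lung minus kidney, 1.13 for lung minus liver and 0.27 for kidney minus liver, so Cela1 ran against the general direction in both comparisons with lung.

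Ctrl was higher in lung than in kidney by 1.36 (standard error 0.37, adjusted p = 0.0119, limma) and than in liver by 1.33 (adjusted p = 0.0113, limma). These calls depend on the scaling, since with median-of-ratios scaling the differences were 0.74 (adjusted p = 0.131, limma) and 0.51 (adjusted p = 0.27, limma). Their size also depends on the pseudocount, and was 2.57 and 2.56 at a pseudocount of 0.1. With fewer libraries the differences stayed above 1 but some adjusted p-values passed 0.05. Without lung replicate 2 the difference was 1.28 against kidney (adjusted p = 0.0567, limma) and 1.25 against liver (adjusted p = 0.0514, limma). Against kidney it was 1.27 without kidney replicate 2 (adjusted p = 0.0569, limma), and against liver 1.11 without liver replicate 2 (adjusted p = 0.0668, limma).

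Sycn was higher in kidney than in lung (lung minus kidney -1.10, standard error 0.35, adjusted p = 0.0235, limma) and than in liver (1.07, adjusted p = 0.0463, limma). Its 13 and 19 reads in the kidney libraries stand against 1 read in each library of liver and lung. As Samd4b overlaps Sycn on the opposite strand and the use of strand is not known here, these few reads were not shown to be of Sycn alone. The call against lung was lost in 4 of 12 alternatives. Without kidney replicate 2 the difference was -0.84 (adjusted p = 0.121, limma), without lung replicate 1 it was -1.12 (adjusted p = 0.0712, limma) and without lung replicate 2 it was -1.07 (adjusted p = 0.0833, limma). With no filter on low values it was -1.10 as before (adjusted p = 0.0521, limma). The call against liver was lost in 9 of 12 alternatives, among them the fit with the replicate number as a block (adjusted p = 0.0649, limma). The sizes depend on the pseudocount, and at 0.1 were -2.575 for lung minus kidney and 2.463 for kidney minus liver.

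**Figure D4:**
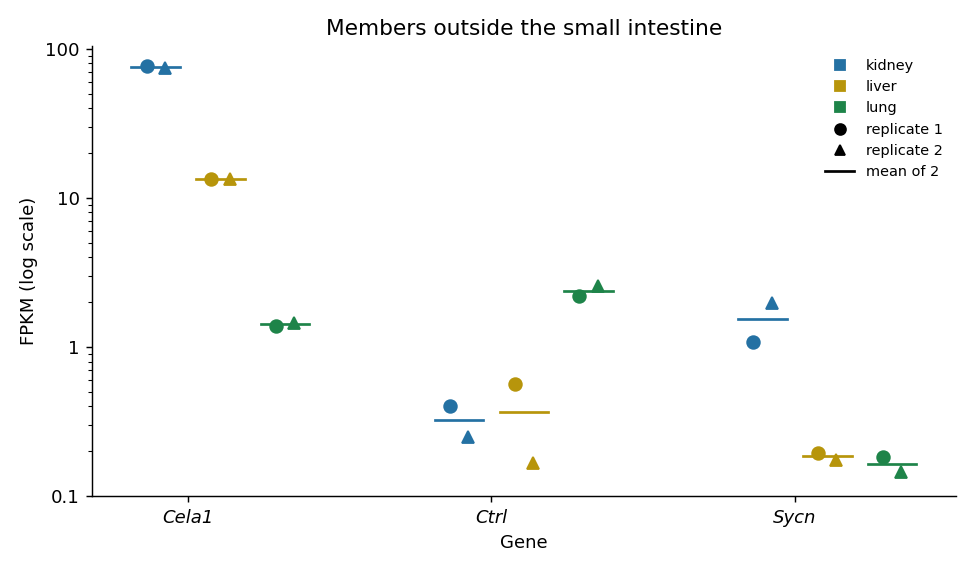
FPKM (vertical axis, log scale) of Cela1, Ctrl and Sycn in the 6 libraries of kidney, liver and lung; circles and triangles are replicates 1 and 2 and the short lines are the means of 2. Cela1 steps down from 76.5 and 74.2 in kidney to 1.39 and 1.46 in lung, Ctrl is highest in lung at 2.21 and 2.58, and Sycn in kidney at 1.09 and 1.97.

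Traces of the remaining genes were present in the other tissues too. Summed over the 7 acinar members without Cela1, the FPKM was 1.87 and 3.38 in kidney, 1.09 and 1.29 in liver, and 4.84 and 4.32 in lung, against 1247 and 607 in small intestine. These sums rest on 36 and 48 reads in kidney, 11 and 11 in liver, and 55 and 80 in lung. In lung most of the reads were of Ctrl and Cpb1, with 25 and 37 and with 14 and 31, and Pnliprp2 had at most 1 read in any library outside the small intestine.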

How the data were processed

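Per the study's methods, bbduk sorted the reads by sample index, STAR 2.5.3a aligned them to the mouse genome of Ensembl (GRCm38), and the authors used the DESeq2 package to compute FPKM. The authors deposited these FPKM values, 1 column per library, and these 8 columns were matched to samples by name. The program that counted reads, its use of strand and its treatment of reads with several places are not given in the sources used here.

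Exon lengths and coordinates came from GENCODE M21 (GRCm38), in which 51844 of 52195 symbols had a single match. Read numbers were worked out from the spacing of low values. Between 94.5% and 96.1% of the values of up to 50 reads per library were whole within 0.02 reads. For Cela1, Clps, Pnliprp1 and Pnliprp2 the annotated length did not give whole reads, and the shortest length that did was used (1103, 550, 1619 and 1567 bases). The detection floor was 3 reads. Ratios between 2 libraries carry exact binomial intervals (scipy 1.17.1).

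Because FPKM values are not counts, the test was limma 3.58.1 (R 4.3.3, lmFit and eBayes with a trend) on log2(FPKM + 1), for the 16328 genes that reached an FPKM of 1 in 2 or more libraries, with 4 tissues in 1 fit. It was tested on simulated data first. Benjamini-Hochberg adjustment was over all genes of a comparison. Calls needed an adjusted p under 0.05 and a log2 difference over 1 in size.

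The members, the lists and the tests were chosen with earlier results of these data known. Named are all members, their paralogs, the list genes that define a list or reach an FPKM of 1 in small intestine (given in part), and the 10 genes nearest to the members in ratio, of which 1 is not reported here. The replicate numbers were not taken as pairs. Alternatives changed the pseudocount, scaling, filter, block and the libraries included.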

Additional observations from a re-analysis of the deposited data

How the results depend on the processing

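Of 154 values recomputed under alternatives, 114 kept their direction and their side of the threshold, or lay within 1.5 times the main count or within the spread set for a value with no test. No direction was reversed. The 3 differences of Cela1 among kidney, liver and lung were called under each of 12 alternatives, and the 19 values past the threshold that fell below it were all of Ctrl or Sycn. The number of other acinar enzymes called higher in small intestine ranged from 3 to 17 when 1 library was left out. It was 3 without either small intestine library, because only 3 of the list were then high enough to be tested, and all 3 were called. The number of members called in lung against kidney ranged from 1 to 3 with 1 library left out, without kidney replicate 2 or lung replicate 2 at the lower end. In lung against liver it was 2, it ranged from 1 to 2 with 1 library left out (1 without liver replicate 2 or lung replicate 2), and it was 4 with a pseudocount of 0.1 and 1 with median-of-ratios scaling. In kidney against liver it was 2, and 1 with median-of-ratios scaling, 1 without a filter on low values, and from 1 to 2 with 1 library left out (1 without any of the 6 libraries of kidney, liver and lung). The median ratio of small intestine replicate 1 to replicate 2 over the 8 acinar members was 2.15, with 2.04 after median-of-ratios scaling and 2.08 after scaling to the same sum without mitochondrial genes and their copies on chromosome 1. The median separation from the other tissues was 76.9-fold, with 23.4-fold at a pseudocount of 1, and with 1 small intestine library left out it ranged from 76.9 without replicate 1 to 133 without replicate 2, where the lower bound of Pnliprp2 enters the median.

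With the replicate number as a block, 2248 genes were called higher in small intestine in place of 2244, and 1 member in place of 2 was called in kidney against liver. Nothing in the labels says that a shared number marks a shared mouse, and the correlation of the differences between replicates 1 and 2 across the 16328 genes lay between -0.217 and 0.0528 for the 6 pairs of tissues, so the numbers were not taken as pairs. Several tissues came from each mouse, and which libraries share a mouse is not known here. Depth limits what is said of Ins2, Ins1 and Ptf1a, with at most 9 reads in a library. With 2 libraries a tissue, the spread is poorly known.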
